A study of Mus musculus with 2 samples.

Results

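The genes described here are the chains of cytokine receptors that signal through Stat3, measured in regulatory T cells (Treg) of mice with 1 or both Stat3 alleles loxP-flanked. They were taken by name: the gp130 family chains Il6st, Il6ra, Il27ra and Lifr, the IL-10 receptor chains Il10ra and Il10rb, the IL-21 receptor Il21r, and the IL-12 and IL-23 receptor chains Il12rb1, Il12rb2 and Il23r. Every probe set that the platform annotation pairs with exactly 1 of these 10 symbols was used, which gave 18 probe sets of 9 genes out of 45101 probe sets and 18194 genes on the array. No probe set carried the name Il23r alone in that annotation, so Il23r was not analysed here.

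Treg are CD4 T cells that depend on the factor Foxp3 and hold back immune responses. Those studied here were sorted from female mice of 6 to 8 weeks (spleen and lymph nodes), and each genotype has 1 Affymetrix array. By the sample labels all mice were Foxp3 Cre/wtS, where the meaning of S is not given. The series text spells it Cre/wt for fl/fl. The sample called fl/wt is Stat3 fl/wt and the sample called fl/fl is Stat3 fl/fl. Both therefore carry the Foxp3-linked Cre allele, so the fl/wt sample is also exposed to Cre and stands as the control with 1 floxed Stat3 copy. Foxp3 is X-linked, and in a female with 1 Cre allele Cre acts only in the Treg that use that X. The labels leave unsaid whether the sort picked those cells and how many mice were pooled. With a single array a genotype no difference below has a replicate error, and no p-value is given. In such bulk RNA, fewer cells of a type and less RNA per cell cannot be told apart.

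As background, these receptors have no kinase of their own. Ligand brings the chains together, the Janus kinases bound to their tails phosphorylate tyrosines there, and Stat proteins dock on them, are phosphorylated and move to the nucleus. Il6st encodes gp130, the signalling chain that the receptors for IL-6, IL-27, LIF and oncostatin M share. In Treg, Stat3 is known to be needed for the control of inflammation driven by Th17 cells, with IL-10 among its inputs, while IL-6 is known to oppose Treg induction.

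Stat3, the floxed gene, was read by 3 probe sets above log2 5, which stood at 12.00, 10.65 and 10.45 in fl/wt and at 11.99, 10.63 and 10.37 in fl/fl. Because the labels do not name the floxed exons, these values do not check the genotype, and each direction below rests on the labels. Of the 12 Treg and CD4 T cell markers listed, 10 reached log2 5 on both arrays, among them Ctla4 at 14.91 (fl/wt) and 14.87 (fl/fl) and Il2ra at 13.45 and 13.35. Foxp3 itself, read by a single probe set, did not reach log2 5 (4.09 and 3.52). Of 10 myeloid markers 8 were above it, with C1qa at 13.82 and 13.83 and Lyz2 at 12.59 and 12.52, and macrophages are known to carry several of these receptors too. The summed myeloid marker level (log2 of the sum of linear values over its 10 genes) was 16.07 for fl/wt and 16.06 for fl/fl, and the part of such cells in the receptor levels was not tested. Summed the same way, the Treg and CD4 T cell markers (10 of 12 measured) stood at 16.70 and 16.67. The B cell markers (4 of 7) stood at 10.75 and 10.68 and the CD8 T and NK markers (4 of 6) at 9.78 and 9.90. The dendritic markers (1 of 5) were at 7.14 and 7.26, and the endothelial and stromal markers (1 of 6) at 8.14 and 8.21. Such sums do not give shares of cells, because probe sets differ in how strongly they bind.

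Transcripts of 7 receptor chains reached log2 5 on both arrays: Il6st, Il6ra, Il27ra, Il10ra, Il10rb, Il21r and Il12rb1. Lifr and Il12rb2 were under it in both, and no probe set of the family crossed the threshold between the arrays. On the whole array 53.1% of genes, by their brightest probe set, and 43.0% of probe sets reached that level in both. By probe set, 10 of the 18 were measured in this sense, and 8 lay between 1.94 and 3.19, in the dense low end where this type of processing leaves values without order. Levels of different chains were not ranked against each other, because each probe set binds its target with its own strength. Within a gene, probe sets were ordered by level to choose the brightest.

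**Figure D1:**
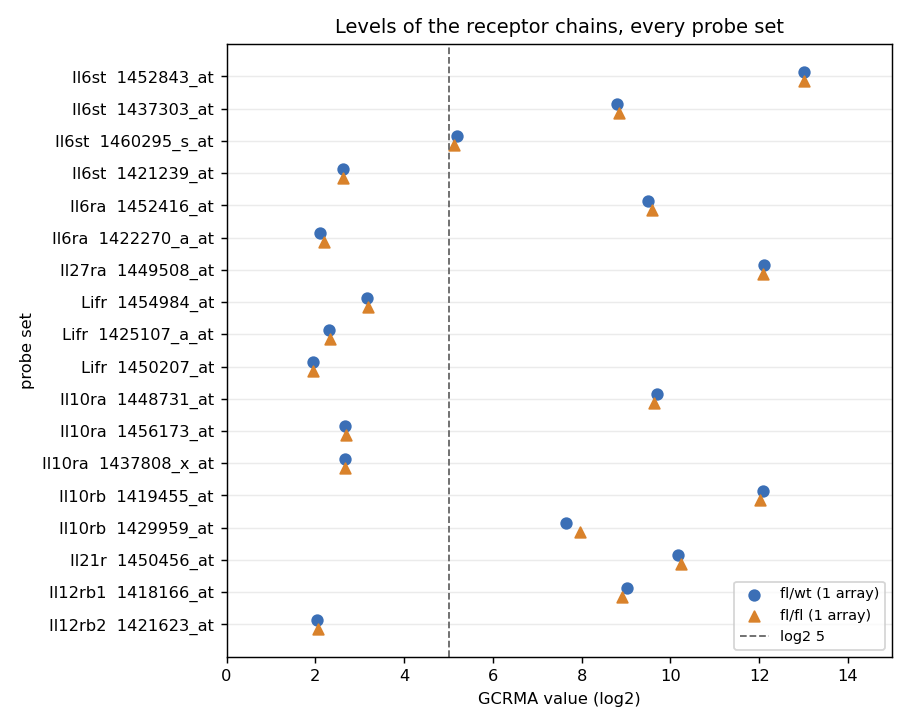
GCRMA values (log2, horizontal axis) of the 18 receptor probe sets, grouped by gene (vertical axis), with a circle for the fl/wt array and a triangle for the fl/fl array. The dashed line marks log2 5. The symbols of an array pair nearly coincide, except for the Il10rb probe set at 7.64 and 7.97, and the probe sets of Lifr and Il12rb2 all lie left of the line.

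Among the gp130 family, the shared chain Il6st was well measured and its values were close between genotypes. Probe set 1452843_at of Il6st read 13.00 (fl/wt) and 13.01 (fl/fl), a difference (fl/fl minus fl/wt) of 0.015 on the log2 scale. The next, 1437303_at, read 8.80 and 8.84, a difference of 0.041. The dimmest measured one, 1460295_s_at, lay just above the threshold at 5.18 and 5.11, a difference of -0.068, and its suffix marks probes that may be shared with other transcripts. A last Il6st probe set, 1421239_at, was at 2.62 and 2.63. The measured probe sets of Il6st thus pointed both ways, and the sign of the brightest turned (-0.016) when each array was centred on its median. Over the 1023 genes with 3 measured probe sets, 73.9% had differences of both signs. The gap between the highest and lowest difference was 0.11 for Il6st, against a median gap of 0.16 for these genes.

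Il6ra encodes the chain that binds IL-6 and hands it to gp130. Its probe set 1452416_at read 9.49 (fl/wt) and 9.59 (fl/fl), a difference of 0.10, or 7.35% more signal in fl/fl. This was the largest positive difference among the brightest probe sets of the 7 chains. Of the probe sets with a mean level from log2 9 to 11, 23.6% differed by at least as much. The other Il6ra probe set, 1422270_a_at, was at 2.12 and 2.19, under the threshold in both arrays.

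Il27ra encodes the chain that pairs with gp130 to bind IL-27, and it was read by a single probe set, 1449508_at. Its level was 12.12 (fl/wt) and 12.09 (fl/fl), a difference of -0.029. Lifr, which pairs with gp130 in the receptor for leukaemia inhibitory factor, had 3 probe sets, all under the threshold. They read 3.16 and 3.19, 2.32 and 2.34, and 1.94 and 1.95 in fl/wt and fl/fl. No difference is read from these values.

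Both IL-10 receptor chains were measured. Il10ra, the ligand-binding chain that carries the Stat3 docking tyrosines, read 9.70 (fl/wt) and 9.63 (fl/fl) with 1448731_at, a difference of -0.070. Its other probe sets, 1456173_at and 1437808_x_at, were both at 2.66 in fl/wt and stood at 2.70 and 2.68 in fl/fl. Of the 4 measured chains with several probe sets, 3 had at least 1 under the threshold. The same held for 59.9% of the 6136 measured genes with several probe sets on the array.

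Il10rb, the accessory chain shared with the receptors for IL-22 and the lambda interferons, had the family's largest difference and also its widest disagreement. Probe set 1419455_at read 12.07 (fl/wt) and 12.01 (fl/fl), a difference of -0.064. Probe set 1429959_at read 7.64 and 7.97, a difference of 0.33, or 25.5% more signal in fl/fl. The probe sets of Il10rb thus gave opposite directions, 0.39 apart. Among the 2585 genes with 2 measured probe sets, 50.2% had opposite signs, the median gap was 0.095, and 5.15% had a gap at least as wide as that of Il10rb. The dimmer probe set lay at the edge of the central 95% of differences at its level (-0.34 to 0.33 from log2 7 to 9). As the median of both probe sets, Il10rb differed by 0.13.

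Il21r encodes the specific chain of the IL-21 receptor, which works with the common gamma chain. Its single probe set, 1450456_at, read 10.16 (fl/wt) and 10.24 (fl/fl), a difference of 0.077. The gene of the common gamma chain was not analysed here. Il12rb1, the chain that the IL-12 and IL-23 receptors share and that binds Tyk2, read 9.02 and 8.91 with 1418166_at. Its difference of -0.11 was the largest negative one of the family and corresponds to a linear ratio of 0.924 (fl/fl over fl/wt). From log2 7 to 9, 41.4% of probe sets differed by at least as much. Il12rb2, the chain that completes the IL-12 receptor and signals mainly to Stat4, was under the threshold with its only probe set, 1421623_at, at 2.05 and 2.06.

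Set together as receptors, the chains of 3 of 7 complexes were all measured in both arrays: those for IL-6 (Il6ra with Il6st), IL-27 (Il27ra with Il6st) and IL-10 (Il10ra with Il10rb). The receptors for LIF and IL-12 each had 1 chain under the threshold. The receptors for IL-21 and IL-23 each had a chain not analysed here. By brightest probe sets, both chains for IL-6 were higher in fl/fl (0.10 and 0.015) and both for IL-10 lower (-0.070 and -0.064). Other settings turned these pairs. Il6st was -0.016 after median centring, a step that moved the median of all measured genes by -0.031. Il10rb was 0.13 as the median of its probe sets.

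No receptor probe set passed 1.5-fold in either direction. Over all probe sets at or above log2 5 in both arrays, 0.665% did, and a count of 0 of 10 lies near that background. A difference of 0.25 on the log2 scale was passed by 1 of the 10, the dimmer Il10rb probe set, beside 7.61% of all such probe sets. In sign, 5 of the 10 were higher and 5 lower in fl/fl. By brightest probe set, 3 chains were higher and 4 lower, with a median difference of -0.029, which was 0.015 when the median over a chain's probe sets stood for it and -0.060 after median centring. The median over the 9669 measured genes was -0.0046, or -0.036 after median centring. Without centring, 47.4% of them were higher in fl/fl. In size, the median difference of the chains was 0.070, beside 0.053 over all measured genes. All 10 receptor differences lay inside the central 95% of their band of level. That band narrowed from -0.56 to 0.48 at log2 5 to 7, through -0.19 to 0.18 at log2 9 to 11, to -0.11 to 0.12 at log2 11 and above.

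**Figure D2:**
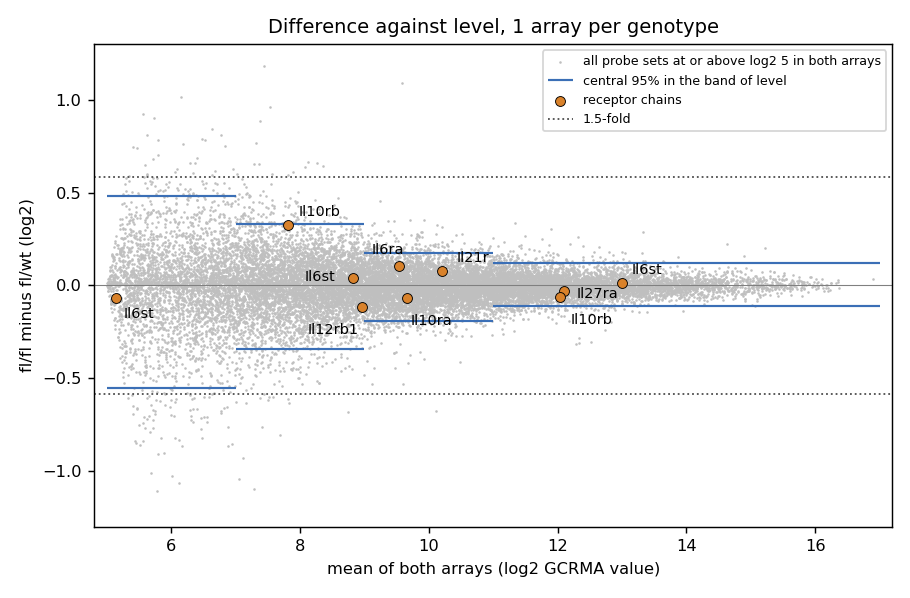
Difference between the arrays (fl/fl minus fl/wt, log2, vertical axis) against the mean of both arrays (log2 GCRMA value, horizontal axis). Grey points are the 19393 probe sets at or above log2 5 in both arrays (2 lie outside the plotted range), orange points the 10 measured receptor probe sets, blue lines the central 95% of differences in each band of level and dotted lines 1.5-fold. Every orange point lies between the blue lines, with the Il10rb probe set at 0.33 next to the upper one.

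The 8 dim receptor probe sets were all slightly higher in fl/fl, by 0.0073 to 0.076. Of the 25353 probe sets under log2 5 in both arrays, 91.4% were higher in fl/fl, with a median of 0.015, so the shared sign is that of the low end as a whole.

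Other cytokine receptors, listed beside the chains and not all of these families, were mostly under the threshold. Of 15 listed, 12 had a probe set and 2 were measured, both higher in fl/fl and neither past 1.5-fold, with a median of 0.11. Crlf2, the TSLP receptor, read 12.59 and 12.60, a difference of 0.011. Csf3r, the receptor for the granulocyte growth factor G-CSF, read 6.63 (fl/wt) and 6.83 (fl/fl), a difference of 0.20. Osmr (2.42 and 2.44) and Cntfr (2.57 and 2.57), whose products also act with gp130, did not reach the threshold. Il11ra1, the IL-11 receptor chain, was not analysed here.

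Among the ligands and ligand subunits, 5 of 14 with a probe set were measured, 3 higher and 2 lower in fl/fl (median 0.014), none of them past 1.5-fold. Over all measured genes 0.548% passed 1.5-fold. The ligand median was -0.018 after median centring (-0.036 over all measured genes) and 0.0052 without shared-suffix probe sets. Lif read 8.10 (fl/wt) and 7.76 (fl/fl), a difference of -0.34, the largest of the list. Il10 read 11.83 and 11.82, a difference of -0.0074. Ebi3, a subunit shared by IL-27 and IL-35, read 11.83 and 11.84, a difference of 0.014. Osm (oncostatin M) differed by 0.11 and Clcf1, a ligand of the CNTF receptor, by 0.029. Il6 was under log2 5 in both arrays, as were Il21, Il12a, Il12b and Il23a.

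Downstream of the receptors, all 10 Janus kinases and Stat proteins with a probe set were measured, 4 higher and 6 lower, with a median of -0.014. Stat2 (6.83 and 7.04) differed by 0.21, its other measured probe set by 0.34, and Stat5a by 0.13, while Stat5b differed by -0.077 and Stat6 by -0.043. The other measured probe set of Stat5b differed by 0.049 and that of Stat6 by 0.0064, each against the direction of the brightest. The list median was -0.046 after median centring (-0.036 over all measured genes) and -0.0073 when the median of a gene's probe sets stood for it. The brightest probe set of Stat3 differed by -0.0083. None passed 1.5-fold.

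Inhibitors, phosphatases and the proteases that shed receptor ectodomains had 12 of 13 members measured, 5 higher and 7 lower, for a list median of -0.030, none past 1.5-fold. That median was -0.061 after median centring (-0.036 over all measured genes) and -0.010 without shared-suffix probe sets. Socs3, the inhibitor that binds gp130 and is induced through Stat3, read 12.76 in both arrays by its brightest probe set, a difference of 0.0063. Its other measured probe sets differed by 0.057 and 0.085. Pias1 (0.096), like Pias4 a member of a family of Stat-binding inhibitors, and Adam17 (0.014), the protease that sheds the IL-6 receptor, were the highest. The other measured probe set of Adam17 differed by 0.11. Pias4 (-0.13) and the cytokine-induced inhibitor Cish (-0.12) were the lowest, and of the other probe sets of Pias4 one differed by -0.40 and one by 0.089. Socs1 was at 5.11 in fl/wt and under the threshold in fl/fl (4.90).

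Genes linked to Stat3 had 17 of 20 members measured, 6 higher and 11 lower, the median being -0.042 and none past 1.5-fold, beside 47.4% higher among all measured genes. The list median was -0.073 after median centring (-0.036 over all measured genes), -0.020 by medians of probe sets and -0.023 without shared-suffix probe sets. Bcl3 (0.070) and Batf (0.055) were the highest. Fosl2 was the lowest, at 6.52 (fl/wt) and 6.23 (fl/fl), a difference of -0.29, followed by Bcl2 at -0.076. The 4 other measured probe sets of Bcl2 differed by -0.13 to 0.023. The remaining members with a probe set, Il17a and Il1r1, did not reach the threshold.

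**Figure D3:**
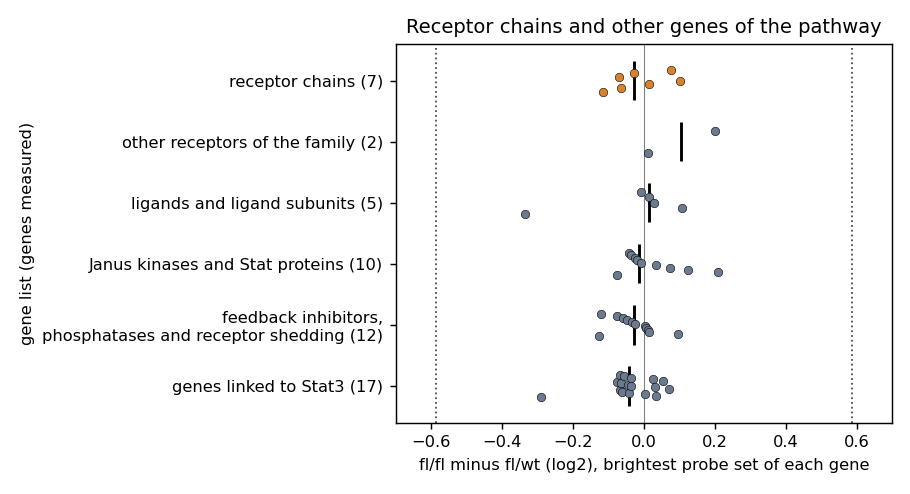
Difference between the arrays (fl/fl minus fl/wt, log2, horizontal axis) for the brightest probe set of each measured gene, by gene list (vertical axis, with the number of genes). Points are genes, their height within a list has no meaning, black bars are list medians and dotted lines 1.5-fold. The 7 receptor chains spread from -0.11 to 0.10 around a median of -0.029, and no point of any list reaches 1.5-fold.

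The letters that Stat proteins are known to bind, TTCNNNGAA (N is any base, and the pattern reads the same on both strands), were looked for in the RefSeq promoter windows of GRCm38.p6, which run from 250 bases before to 50 after a gene's start. Windows were listed for 6 of the 10 chains (Il6ra, Il12rb2, Il23r, Il21r, Il6st and Lifr). Only the window of Il12rb2 held a match, beside 8.30% of all 32851 windows. The stretch is shown because it is the single match in the family. It lies on the minus strand of chromosome 6 at chr6:67376283-67376331, and the match, in capitals, runs from 123 to 115 bases before the start.
Il12rb2: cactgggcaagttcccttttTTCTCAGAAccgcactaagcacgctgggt
Il12rb2 was under the threshold in both arrays, so no difference between genotypes can be set beside this match. A match describes letters only.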

How the data were processed

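RNA of sorted Treg was hybridised to 1 Affymetrix array per genotype, per the labels' protocols. The deposited values are on a log2 scale, as read from their range (0.53 to 16.9), and GCRMA is named for them in the submitters' processing notes. Neither its version nor any further arrays in that normalisation are stated there. The method subtracts a background modelled from probe sequence, which packs dim probe sets into a low end.

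Gene names came from the platform annotation, with symbols looked up in RefSeq (GRCm38.p6). A probe set at or above log2 5 in both arrays was counted as measured. Differences are fl/fl minus fl/wt. In lists a gene was read by its brightest probe set. Every member was named, and of each list the 2 highest and 2 lowest measured genes and Stat3, Socs3, Il10 and Ebi3; other named list genes were chosen after their values were seen. Planned protein comparisons were not run, since no protein sequences were used here. Members and lists were chosen with earlier results of these data known. The number of arrays limits the precision. Scripts (Python 3.11.15, pandas 2.3.3, statsmodels 0.14.6) were tested on simulated data. The simulated shifts were larger than any receptor difference, so this checks the code and not how well small differences are read.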

Additional observations from a re-analysis of the deposited data

How the results depend on the processing

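Of 199 values under 10 alternatives, 195 moved by less than a tolerance. For single probe sets and chains this was 0.14, the SD of differences over all measured probe sets. For a list it was the SD over genes divided by the root of its gene number, and for a count 1.5 times. The 0.14 is wider than the largest chain difference by brightest probe set (0.11), so a turned sign can still count as unmoved. Other thresholds and the removal of shared-suffix probe sets leave a kept probe set's difference unchanged by construction. The count of 195 thus says little about stability. The count of 7 measured chains was the same with thresholds of log2 4 and 6 and under the other settings run for it. No chain passed the fold threshold by its brightest probe set under any setting. At a threshold of 0.25 on the log2 scale, 1 receptor probe set passed, by construction of the lower threshold. The median of other receptors was 0.11 over 2 genes. With a threshold of log2 4 it was 0.011 over 3 genes, because Il22ra2 (difference -0.24) came in. Without shared-suffix probe sets it was 0.20, with 1 gene left. The median of genes linked to Stat3 was -0.073 after centring each array on its median, which moved the median of all genes by -0.031. The median over the receptor chains ran from -0.060 to 0.015. Signs changed in 5 of the values: for the Il6st gene and its brightest probe set (-0.016) and the ligand median (-0.018) after median centring, and for Il10rb (0.13) and the chain median (0.015) as medians of probe sets. With 1 array per genotype no replicate could be left out. No paired analysis was possible because each genotype has 1 array.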
